A study of Mus musculus with 9 samples.

Results

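The AP-1 and Egr transcription factors were followed in mouse calvarial cells as they became osteoblasts. The 10 genes were taken by symbol from the deposited tables of 40548 genes. They comprised 4 genes of the Fos family (Fos, Fosb, Fosl1 and Fosl2), 3 genes of the Jun family (Jun, Junb and Jund) and 3 genes of the Egr family (Egr1, Egr2 and Egr3). The rule that picks them uses names and no measured value, but the genes were chosen with earlier results of these data known.

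AP-1 is a dimer of a Jun protein with another Jun protein or with a Fos protein, joined through leucine zippers, and Egr proteins are zinc finger factors that bind GC-rich sites. Most of these genes are immediate early genes, whose transcripts appear within minutes of a growth factor, serum or mechanical stimulus without new protein synthesis and then decay. Fosl1 (Fra-1) and Fosl2 (Fra-2) are induced later and last longer, and in bone both are known to act in matrix production by osteoblasts. In the account below, Fos, Fosb, Jun, Junb, Egr1, Egr2 and Egr3 are called the 7 rapid-response genes.

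Cells came from the calvaria (skull vault) of newborn pups, labelled C57BL/6 and named C57BL/6J in the study's methods. They were grown to confluence and collected without differentiation (day 0) or after 4 or 7 days in mineralization medium containing ascorbic acid and β-glycerol phosphate, and the medium was replaced every day. Total RNA was depleted of ribosomal RNA and sequenced in 3 libraries per stage, 9 in all. The cells were primary, unsorted cultures that carried no engineered allele according to the labels. Trypsin released the cells of every stage. Collagenase I was applied beforehand to the mineralized cells and not to the others, and, by the study's methods, for longer at day 7 than at day 4. Stage and harvest therefore cannot be told apart in any comparison between stages, which bears on genes known to respond within minutes. The study calls the 3 libraries biological replicates, but the labels do not say that they came from separate animals or cultures, so p-values measure only the spread between these samples.

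Reads on genes ran from 7741204 to 14013219 per library at day 0, from 32820610 to 37306090 at day 4 and from 10675858 to 15622755 at day 7. Day 4 lay in separate tables, so its levels were described and not tested. A difference between day 4 and another stage cannot be told apart from one of table or depth. The gene Gm42418 held 12.0% of the reads of day 0 replicate 3 and 8.12% of day 7 replicate 2, and Plekhh2 held 7.95% of day 7 replicate 3. Day 0 replicate 3 was the lowest of its stage in 81.6% of the genes compared. The osteoblast label was checked against marker genes. Of these, 10 of 10 had every day 4 library above every day 0 library, against 21.6% of all genes compared. At day 7, 9 rose in limma against day 0, beside 12.6% of all genes tested. They included Ibsp, encoding bone sialoprotein (9.43 on the log2 scale, limma adjusted p = 1.33e-41). Runx2 did not pass (0.23, limma adjusted p = 0.268). In these bulk samples, fewer cells of a type and less RNA per cell cannot be told apart.

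The DNA just upstream of an annotated start site is shown for 4 genes that differed in how far day 4 stood above day 0. RefSeq promoter windows of build GRCm38.p6 were matched for 7 of the 10 genes (Fos, Fosb, Fosl2, Jun, Junb, Jund and Egr2), and each sequence printed is the 130 bases that end at the base before an annotated start, read 5′ to 3′ on the strand of the gene. Fos and Egr2 are shown because the profile of Fos over the 9 libraries was closest to that of Egr2, and Fosl2 and Fosb because they carried the same motif beside very different levels. Egr2 had windows at several annotated starts, and one that carries a motif is shown. The window shown lies inside the Egr2 gene span, which begins at chr10:67535475. The Egr2 window nearest the gene start (chr10:67535369-67535498) held none of the motifs listed below. The Fosl2 window lies inside the gene span, which begins at chr5:32135801. Capitals mark a TATA box in Fos, a serum response element (CArG box) in Egr2 and a site for Egr proteins in Fosl2 and Fosb.
Fos (chr12:85473760-85473889, plus strand): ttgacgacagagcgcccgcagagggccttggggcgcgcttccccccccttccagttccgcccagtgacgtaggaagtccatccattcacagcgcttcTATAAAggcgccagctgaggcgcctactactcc
Egr2 (chr10:67537739-67537868, plus strand): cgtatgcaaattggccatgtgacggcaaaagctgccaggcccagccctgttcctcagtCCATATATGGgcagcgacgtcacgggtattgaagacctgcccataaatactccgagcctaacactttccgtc
Fosl2 (chr5:32136342-32136471, plus strand): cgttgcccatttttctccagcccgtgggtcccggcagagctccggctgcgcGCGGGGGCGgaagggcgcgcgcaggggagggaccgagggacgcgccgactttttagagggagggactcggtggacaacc
Fosb (chr7:19310046-19310175, minus strand): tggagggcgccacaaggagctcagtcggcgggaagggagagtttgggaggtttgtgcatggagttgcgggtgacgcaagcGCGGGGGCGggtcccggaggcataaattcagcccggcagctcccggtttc

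Both strands of the 250 bases upstream were searched in 32851 windows of all genes. The AP-1 site TGACTCA or TGAGTCA stood in 4.46% of the windows, the cAMP response element TGACGTCA in 1.55%, the serum response element in 1.47%, the Egr site GCGTGGGCG or GCGGGGGCG in 3.06% and the TATA box TATAAA in 12.4%. The pattern of the serum response element is the same on both strands, so each match was counted once. The marked matches began 33 bases before the start in Fos, 72 in Egr2, 79 in Fosl2 and 50 in Fosb. In the windows of Jun, Junb and Jund none of these exact letters were found, and variants of the motifs were not searched. The upstream bases searched for Jund ended at chr8:70697738, well before the gene start at 70698949. They are thus not the bases just upstream of that start. A match is a description of the letters and was not tested for binding.

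All 3 day 4 libraries lay above all 3 day 0 libraries for 9 of the 10 genes, in RPKM (reads scaled to gene length and to the library total), against 21.6% of the 12782 genes compared. Jund was the exception. For 8 of the 10 genes all day 7 libraries lay below all day 4 libraries, against 25.0% of genes, the exceptions being Jun and Jund. Day 4 stood above every other library for these 8 genes, against 8.07% of all genes compared. For Fos, Fosb, Egr1, Egr2 and Egr3 the day 4 mean was also more than 2-fold above both other means, which was so for 0.939% of genes. When libraries were rescaled by the median of their ratios, or totals were taken without Gm42418 and Plekhh2, the count of 8 was unchanged, and leaving out any 1 library gave 8 or 9.

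**Figure D1:**
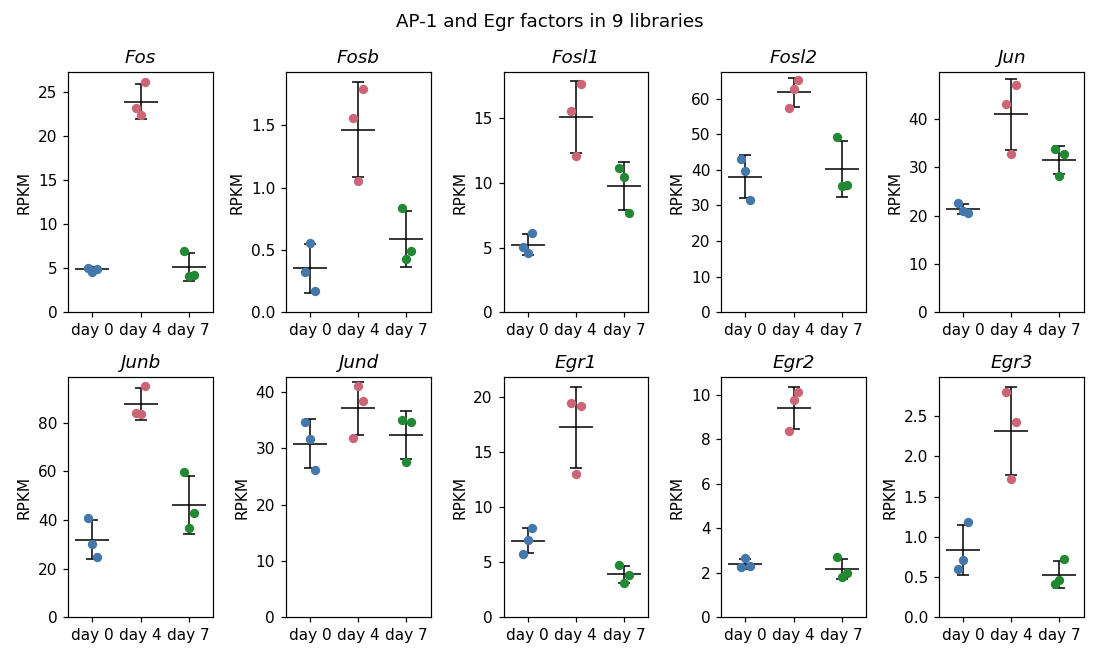
RPKM of the 10 genes (y axis, linear, from 0, with its own scale for each gene) in the libraries of day 0, day 4 and day 7 (x axis). Points are libraries in the order replicate 1, 2 and 3, and black bars give the mean and SD of 3 libraries. Day 4 stands apart from day 0 in every panel but that of Jund.

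Fos encodes the partner of Jun in the classical AP-1 dimer (GRCm38 chr12:85473890-85477273, plus strand). Its level was 5.03, 4.59 and 4.94 RPKM in day 0 replicates 1, 2 and 3. It was 23.2, 22.3 and 26.1 RPKM at day 4. At day 7 it was 6.94, 4.10 and 4.27 RPKM. The day 4 libraries stood far above the rest, and those of day 7 spread around those of day 0. The mean was 4.92-fold higher at day 4 than at day 0, and the day 7 mean was 0.214 of the day 4 mean. Fosb, a close relative that is also induced rapidly (chr7:19302696-19310051, minus strand), was the least abundant Fos gene. It stood at 0.323, 0.557 and 0.172 RPKM at day 0, from 17, 25 and 5 reads. At day 4 it stood at 1.56, 1.05 and 1.79 RPKM, from 192, 147 and 242 reads, and at day 7 at 0.839, 0.424 and 0.495 RPKM. Its day 4 libraries lay above all others, with a mean 4.18-fold that of day 0, while day 0 and day 7 overlapped and day 0 rested on few reads.

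The Egr genes showed the same high values at day 4 and the lowest means at day 7. Egr1 encodes the founding member of the family (chr18:34859823-34864984, plus strand). It measured 5.79, 7.05 and 8.09 RPKM in day 0 cells, 19.5, 13.0 and 19.2 RPKM in day 4 cells and 4.73, 3.15 and 3.81 RPKM in day 7 cells. No stage overlapped another, and the 3 day 7 libraries were the lowest. Its mean was 2.47-fold higher at day 4 than at day 0, and at day 7 it was 0.559 of the day 0 mean. Egr2 (chr10:67535475-67542188, plus strand), known from myelination and hindbrain patterning, measured 2.25, 2.66 and 2.32 RPKM in day 0 cells, 8.35, 9.78 and 10.1 RPKM in day 4 cells and 2.69, 1.82 and 2.00 RPKM in day 7 cells. Day 4 was 3.91-fold the day 0 mean, and day 0 and day 7 overlapped. Egr3 (chr14:70077203-70082614, plus strand), known from muscle spindle development and lymphocytes, was sparse, with 12, 12 and 13 reads in day 0 cells, 130, 91 and 124 in day 4 cells and 8, 7 and 16 in day 7 cells. In RPKM it stood at 0.604, 0.708 and 1.19, then 2.80, 1.72 and 2.43, then 0.413, 0.463 and 0.723. Its day 4 libraries were the highest, by a mean 2.78-fold over day 0, and the other stages overlapped. The ratio of Egr1 to Egr2 in RPKM was 2.91 ± 0.507 (SD, n = 3) in day 0 cells, 1.85 ± 0.505 in day 4 cells and 1.80 ± 0.0948 in day 7 cells, and the libraries of day 0 lay above those of both later stages.

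Among the Jun genes, the difference between stages was large for Junb, smaller for Jun and within the spread for Jund. Junb encodes a Jun protein with weaker transactivation than Jun (chr8:84974484-84978718, minus strand). It measured 41.0, 30.1 and 24.9 RPKM in day 0 cells, 83.8, 83.6 and 95.1 RPKM in day 4 cells and 59.5, 36.5 and 42.7 RPKM in day 7 cells. Day 4 was 2.74-fold the day 0 mean, and the lowest day 7 library lay below the highest day 0 library. Jun (chr4:95049034-95052222, minus strand) measured 22.6, 21.1 and 20.5 RPKM in day 0 cells, 43.2, 32.9 and 47.2 RPKM in day 4 cells and 33.8, 28.2 and 32.7 RPKM in day 7 cells. Its day 4 mean was 1.92-fold that of day 0, and its day 7 libraries stayed above every day 0 library and overlapped those of day 4. Jund (chr8:70698949-70700616, plus strand), which is known for being expressed in resting cells, measured 34.7, 31.6 and 26.2 RPKM in day 0 cells, 31.9, 41.0 and 38.5 RPKM in day 4 cells and 35.1, 27.5 and 34.7 RPKM in day 7 cells. All stages of Jund overlapped, and the day 4 mean was 1.20-fold the day 0 mean. After median-of-ratios scaling, every day 4 library of Jund lay above every day 0 library.

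Fosl1 and Fosl2 lack the strong transactivation domain of Fos. Fosl1 (chr19:5447547-5455946, plus strand) measured 5.01, 4.55 and 6.13 RPKM in day 0 cells, 15.5, 12.1 and 17.7 RPKM in day 4 cells and 11.1, 10.5 and 7.68 RPKM in day 7 cells. The 3 stages did not overlap, and at day 7 it stood between the other stages. Its mean was 2.89-fold that of day 0 at day 4 and 1.87-fold at day 7. Fosl2 (chr5:32135801-32157842, plus strand) measured 43.1, 39.7 and 31.4 RPKM in day 0 cells, 57.2, 62.7 and 65.2 RPKM in day 4 cells and 49.3, 35.4 and 35.8 RPKM in day 7 cells. It was higher in every day 4 library than in any other library, by 1.62-fold over the day 0 mean, and day 0 and day 7 overlapped.

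The order of levels per gene length was led by Fosl2 (38.1 ± 6.02 RPKM), Junb and Jund at day 0, whose libraries overlapped, followed by Jun. Egr1, Fosl1 and Fos came next and overlapped their neighbours, and Egr2, Egr3 and Fosb were lowest. At day 4 Junb led at 87.5 ± 6.58 RPKM, above every library of Fosl2 at 61.7 ± 4.07 RPKM. Jun and Jund overlapped each other there, as did Egr1 and Fosl1, and Fos stood above the latter pair. At day 7 Junb (46.3 ± 11.9 RPKM) and Fosl2 (40.2 ± 7.90 RPKM) overlapped again at the top. Fosl1 at day 7 stood above every library of Fos and Egr1.

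As shares of the summed RPKM of the Fos family, Fosl2 held 78.2% ± 3.95 (SD, n = 3) in day 0 cells, 60.5% ± 2.95 in day 4 cells and 72.2% ± 2.00 in day 7 cells. Fos held 10.1%, 23.4% and 9.05% at the same stages, and Fosl1 held 11.0%, 14.7% and 17.7%. Fosb held 0.712%, 1.43% and 1.03%. Fosl2 thus held most of the family's RPKM in all 9 libraries, and Fos held a larger share than Fosl1 in all day 4 libraries and a smaller one in all day 7 libraries. In the Jun family Junb held 37.6%, 52.8% and 41.6%, Jun 25.7%, 24.7% and 28.9%, and Jund 36.7%, 22.5% and 29.6%. The Egr family was mostly Egr1, at 68.2%, 59.1% and 58.9%. Summed RPKM went from 48.5 to 102 and 55.6 in the Fos family, from 84.2 to 166 and 110 in the Jun family, and from 10.2 to 29.0 and 6.60 in the Egr family.

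**Figure D2:**
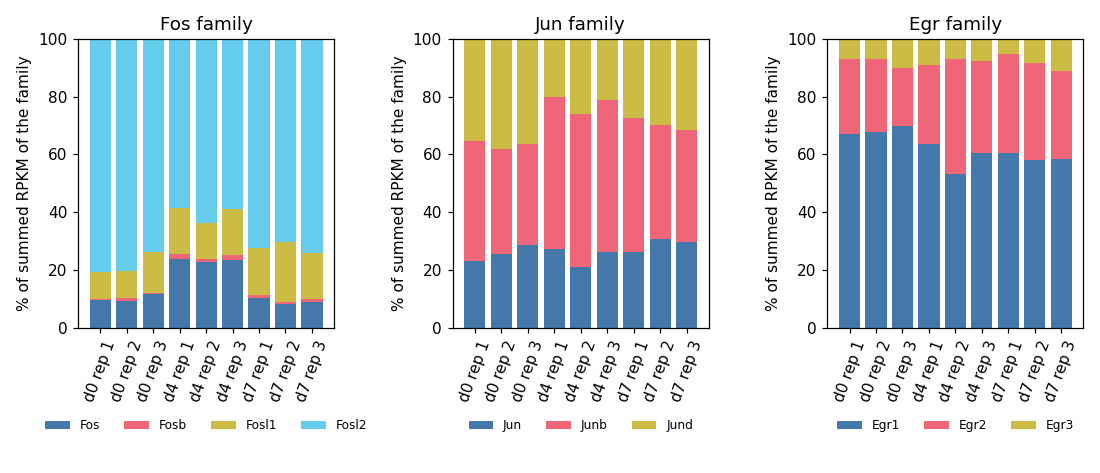
Share of each gene in the summed RPKM of its family (y axis, percent) in each library (x axis, d for day), for the Fos, Jun and Egr families. Fosl2 is the widest band of the Fos family in every library, and the bands of Fos and Junb are widest at day 4.

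Because harvest may touch rapid-response genes, Fosl1 and Fosl2 were set against them within each library. For each library the mean log2(CPM + 0.5) of the 7 rapid-response genes was subtracted from that of Fosl1, where CPM is the read count scaled to the library total alone. This difference changed between stage means by -0.07 from day 0 to day 4, with overlapping libraries, and by 0.81 from day 0 to day 7, with all day 7 libraries above all others. The same difference for Fosl2 was 0.83 lower at day 4 than at day 0, and at day 7 stood 0.03 above day 0 with overlapping libraries. For Jund it was 1.27 lower at day 4 than at day 0 and at day 7 stood 0.03 above day 0. Fosl1 therefore kept pace with the mean of the rapid-response genes at day 4, whereas Fosl2 and Jund did not. That mean joined unlike genes, whose day 4 means ran from 1.92-fold (Jun) to 4.92-fold (Fos) the day 0 mean, beside 2.89-fold for Fosl1. At day 7 it joined genes that went opposite ways, from 0.559-fold (Egr1) to 1.67-fold (Fosb) the day 0 mean, beside 1.87-fold for Fosl1. Of Fosl1, Fosl2 and Jund, Fosl1 had the one difference whose day 7 libraries did not overlap those of day 0. On this scale Fosl1 lay below the mean of the rapid-response genes in all day 0 and day 4 libraries and above it in all day 7 libraries. Against Fos alone, Fosl1 stood at a ratio of 0.996, 0.993 and 1.24 in the day 0 libraries. The ratio was 0.670, 0.542 and 0.676 at day 4 and 1.61, 2.56 and 1.80 at day 7, with no overlap between stages. The ratio of Fosl2 to Fos was 7.86 ± 1.30 (SD, n = 3) in day 0 cells, 2.59 ± 0.189 in day 4 cells and 8.04 ± 0.821 in day 7 cells. No test was made of these differences and ratios.

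**Figure D3:**
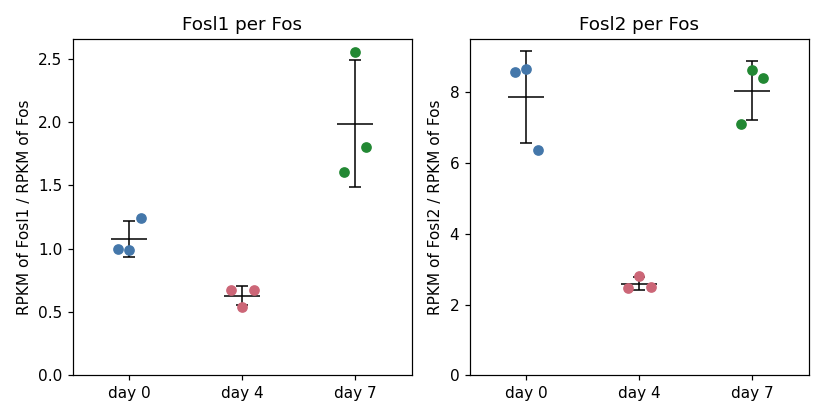
RPKM of Fosl1 (left) and Fosl2 (right) divided by that of Fos (y axes, linear, from 0) at each stage (x axis). Points are libraries and black bars give the mean and SD of 3 libraries, with the ratio of Fosl1 highest at day 7 and that of Fosl2 lowest at day 4.

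Between day 7 and day 0, which shared a table, 3 of the 9 genes tested rose (Fosl1, Jun and Junb) and 1 fell (Egr1) in limma on log2(CPM + 0.5) with Benjamini-Hochberg adjustment over 12712 genes. Across all those genes 12.6% were higher and 18.6% lower, with a median log2 fold change of -0.11. Egr3 had a mean below 1 CPM and was not tested. Fosl1 rose by 0.86 on the log2 scale (SE 0.19, 95% confidence interval 0.47 to 1.25, limma adjusted p = 4.27e-04). Jun rose by 0.55 (SE 0.15, limma adjusted p = 0.00426). Egr1 fell by 0.83 (SE 0.18, limma adjusted p = 2.66e-04). In these 3 genes all day 7 libraries lay on 1 side of all day 0 libraries. An exact two-sided permutation test gave p = 0.1, the smallest that 3 against 3 libraries allow. The share of all genes without overlap between day 7 and day 0 was not counted, so this separation adds no support to the calls. The calls for Fosl1, Jun and Egr1 held under all 21 alternative settings. Jun came nearest the threshold, at limma adjusted p = 0.0458 without day 7 replicate 1 and 0.0476 without day 7 replicate 3.

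Junb rose by 0.53 (SE 0.18, limma adjusted p = 0.0170), but its groups overlapped (exact permutation p = 0.2). The call was lost without day 0 replicate 3 (0.36, limma adjusted p = 0.113) and without day 7 replicate 1 (0.33, limma adjusted p = 0.259). It was also lost on the RPKM table (limma adjusted p = 0.0505), and over all alternatives its adjusted p ran from 6.58e-05 to 0.259. Fosb was 0.61 higher, with an interval of 0.04 to 1.18, and missed the threshold (limma adjusted p = 0.1002). Without day 0 replicate 2 it passed, at 0.90 (limma adjusted p = 0.0196), and over the alternatives its adjusted p ran up to 0.667. It was 0.31 without day 0 replicate 3, 0.37 without day 7 replicate 1, 0.36 on the RPKM table and 0.10 with quality weights. For Fos the interval of the difference was -0.37 to 0.43, for Fosl2 -0.25 to 0.40, for Jund -0.25 to 0.39 and for Egr2 -0.57 to 0.25, so these libraries do not show that the stages were alike. After median-of-ratios scaling, which shifted the median of all genes by 0.10, the log2 fold changes were 0.96 for Fosl1, 0.66 for Jun, 0.64 for Junb and -0.72 for Egr1. The split of all called genes moved too: 40.3% were higher as deposited, 51.8% after median-of-ratios scaling, 27.5% with quality weights and 25.8% without day 0 replicate 3. Genes called lower numbered 2369 as deposited, 5861 with quality weights and 4699 without day 0 replicate 3. The share of all genes called lower, beside which Egr1 is read, thus depends on these settings. Genes called higher moved as well. They numbered 1602 of 12712 in the main fit and 1151 of 12690 without day 7 replicate 1. With median-of-ratios factors there were 2827, and 3148 with TMM and voomWithQualityWeights. Members that rose numbered 3, 2, 3 and 4 in the same order. The 12.6% beside which rises of members and lists are read therefore also depends on the setting. List counts are given for the main fit only.

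**Figure D4:**
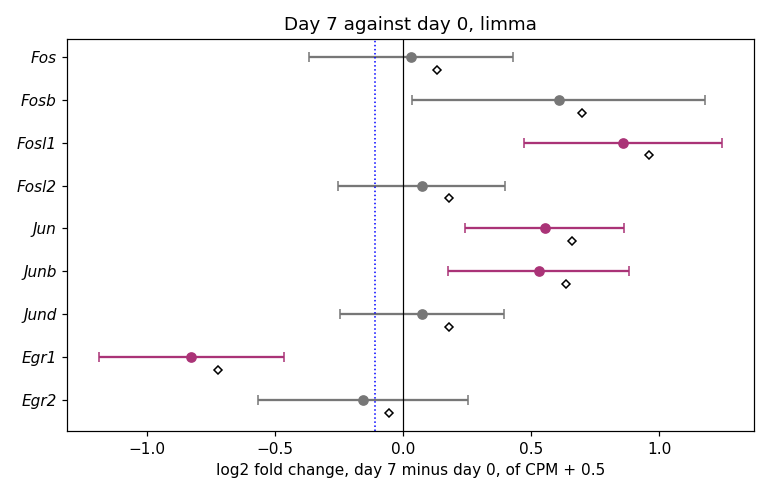
Log2 fold change of CPM + 0.5, day 7 minus day 0 (x axis), for the 9 genes tested (y axis), with limma 95% confidence intervals as bars. Purple genes passed an adjusted p of 0.05, grey ones did not, open diamonds give the value after median-of-ratios scaling and the dotted line is the median of all genes tested.

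Some genes shared exons with a gene on the opposite strand, and the sources used here do not say whether strand was used in counting. These were Fosl1 with Ccdc85b (10.5 to 27.6 CPM), Jun with Junos (0.258 to 1.17 CPM), Junb with Prdx2 (109 to 180 CPM) and Jund with Gm11175 (0 CPM). The values of these 4 members are uncertain to that extent. Within day 7, replicate 1 was the highest library in 9 of the 10 members, against 53.5% of all genes compared, and replicate 2 was the lowest in 8 of them, against 64.2% of all genes.

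Over the 9 libraries, the profile of Fos was closest to that of Egr2 among 9099 other genes, by the root mean square difference of centred log2(CPM + 0.5), which was 0.191. Nr4a1, an immediate early nuclear receptor, followed at 0.296 and the chemokine gene Cxcl14 at 0.318. Egr1 was closest to Olfm1 (0.307), Plat (0.358), encoding tissue plasminogen activator, and Btg2 (0.377). Fosl1 was closest to Angptl2 (0.201), Lrrc15 (0.205) and the thyroid hormone receptor gene Thrb (0.207). Fosl2 was closest to the collagen VI gene Col6a2 (0.0902), Dgat2 (0.0974), which makes triglycerides, and Smad7 (0.1002), an inhibitor of TGF-β signalling. All 9 libraries entered these differences, stages included, and no test was made of them.

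Other immediate early genes showed the day 4 pattern in part. Of 29 compared, 15 had every day 4 library above all others, beside the 8.07% of all genes. The day 4 mean was also more than 2-fold above both other means for 9, beside 0.939% of all genes. Ptgs2, encoding cyclooxygenase-2, stood at 10.8 ± 2.88 RPKM in day 0 cells, 96.0 ± 11.9 in day 4 cells and 26.4 ± 6.50 in day 7 cells (SD, n = 3). Dusp1, a phosphatase that switches off MAP kinases, stood at 4.58 ± 0.562, 19.2 ± 2.48 and 8.23 ± 1.43 RPKM. At day 7 against day 0, 11 of 29 were higher and 3 lower, beside 12.6% and 18.6% of all genes. Their median was 0.23, beside -0.11 over all genes. Klf4 had the largest rise, by 1.86 on the log2 scale (limma adjusted p = 7.40e-14), and was highest at day 7 rather than at day 4. Arc had the largest fall, by 1.02 (limma adjusted p = 6.66e-05).

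**Figure D5:**
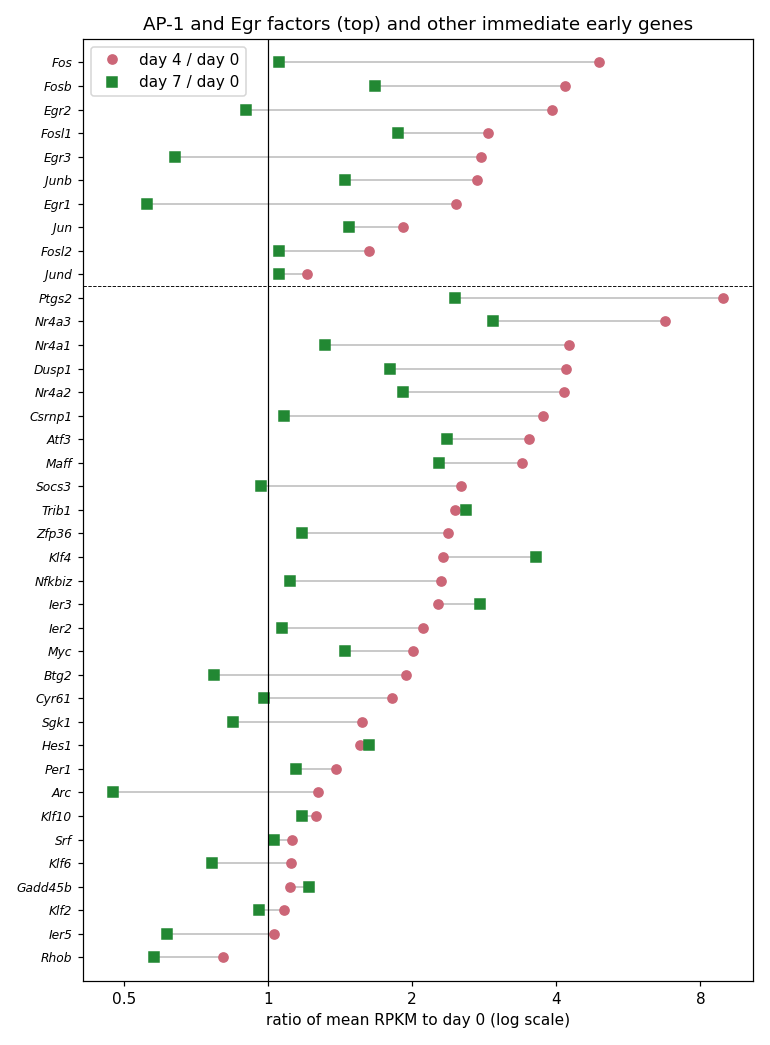
Mean RPKM at day 4 (circles) and day 7 (squares) divided by mean RPKM at day 0 (x axis, log scale), for the 10 AP-1 and Egr genes above the dashed line and 29 other immediate early genes below it (y axis). Both ratios share the day 0 libraries, so their agreement was not read as a result, and Ptgs2 has the highest day 4 ratio while Klf4 is among the few with a higher ratio at day 7.

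Upstream of these genes act MAP kinases and the serum response factors they activate. Of 16 such genes tested, 2 passed at day 7, both lower (Mapk7 and Rps6ka3), with a median of -0.20, and 1 had every day 4 library above all others. Both counts are close to or under the shares over all genes, which were 18.6% lower and 8.07% highest at day 4. Mapk7, encoding ERK5, had the largest fall, by 0.56 (limma adjusted p = 0.00581). Of 12 feedback genes induced by ERK, 5 had every day 4 library above all others. At day 7, 3 of the 12 rose and 3 fell, beside 12.6% and 18.6% of all genes. Among them Dusp4 rose by 1.48 (limma adjusted p = 1.51e-05) and Spry1 fell by 0.67 (limma adjusted p = 0.00102). Etv4, an ETS factor, stood at 3.38 ± 0.336, 14.7 ± 0.942 and 5.44 ± 0.577 RPKM over the 3 stages. Of 9 other AP-1 family genes and dimer partners tested, 2 passed, both lower, with a median of -0.33, and 2 of 9 had every day 4 library above all others. Jdp2, encoding a repressor that pairs with Jun, stood at 56.3 ± 9.96, 41.9 ± 2.26 and 39.9 ± 0.216 RPKM and fell by 0.48 (limma adjusted p = 0.0163).

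Of 13 AP-1 target genes tested, 8 rose and 2 fell at day 7, beside 12.6% and 18.6% of all genes. Their median was 0.73, beside -0.11 over all genes. In 7 of 13 every day 4 library lay above all others, against 8.07% of all genes. Bglap, encoding osteocalcin, Spp1 and Col1a2 rose and are also osteoblast markers here. Bglap rose by 6.78 (limma adjusted p = 2.27e-31) and was highest at day 7. Mmp3, encoding stromelysin, stood at 1.13 ± 0.218, 3.38 ± 0.959 and 0.334 ± 0.135 RPKM, and fell by 1.22 at day 7 (limma adjusted p = 5.14e-04). Of 10 Egr corepressors and targets, 1 rose (Pdgfa, by 1.93, limma adjusted p = 8.62e-14) and 1 fell (Thbs1, encoding thrombospondin, by 1.79, limma adjusted p = 9.45e-10), with a median of -0.19. Corepressor genes of the Egr proteins, Nab1 and Nab2, did not pass (log2 fold changes 0.03 and 0.02).

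Genes of the heat shock response, which protein damage is known to induce, were counted in the same way. Of 12 compared, 0 had every day 4 library above all others, and with 8.07% of all genes doing so, a list of this size differs little from that share. At day 7, 2 rose and 3 fell, beside 12.6% and 18.6% of all genes, with a median of -0.01. Hspb1 rose by 0.72 (limma adjusted p = 0.00873) while Hsph1 fell by 1.26 (limma adjusted p = 2.03e-08). Whether dissociation contributed to the levels of the AP-1 and Egr genes was not tested.

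Markers of other cell types differed between stages. Over all genes 12.6% rose and 18.6% fell at day 7. Macrophage markers summed to 45.1 to 76.3 RPKM in day 0 cells, 86.6 to 95.2 in day 4 cells and 83.6 to 112 in day 7 cells. Lyz2 made up most of that sum, at means of 47.7, 73.4 and 79.4 RPKM. Of 9 macrophage markers listed, 7 of the 7 tested rose at day 7. Ptprc, which defines leukocytes, was near 0, at means of 0.0366, 0.105 and 0.129 RPKM, and had the largest rise, by 1.37. Osteoclast markers summed to 102 to 135, 238 to 245 and 234 to 244 RPKM, with 3 higher and 1 lower of 5 tested. Ctsk made up most of that sum, at means of 120, 231 and 232 RPKM, while Calcr, Dcstamp, Ocstamp and Oscar had means of at most 0.196 RPKM, and the largest rise was that of Acp5, by 2.74, and the fall that of Mmp9, by 0.86. Chondrocyte markers summed to 163 to 468, 54.0 to 170 and 64.3 to 162 RPKM, with 2 higher and 3 lower of 5, led by Comp (1.60) and Col2a1 (-2.16). Skeletal muscle markers summed to 9.38 RPKM at most, with 2 higher and 1 lower of 3 tested, led by Des (2.36) and Ttn (-0.80). Endothelial markers were at or below 0.459 RPKM in sum in every library, with Emcn and Tie1 at 0 in all. The macrophage and osteoclast sums overlapped between day 4 and day 7, and the part of these cells in the levels of the AP-1 and Egr genes was not tested.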

How the data were processed

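RNA-seq libraries of day 0, day 4 and day 7 calvarial cells, 3 each, were grouped by their labels. Per the study's methods and the processing notes, the authors aligned reads with STAR 2.0.4b to GRCm38 (Ensembl annotation) and counted uniquely aligned reads per gene with featureCounts. The strand setting is not given in the sources used here. The deposited CPM are counts scaled to each library total, and the deposited RPKM are CPM per kilobase of gene length; day 0 and day 7 share tables and day 4 has its own.

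CPM values were whole multiples of 1 read in 100% of values, to a tolerance of 0.01 read, so reads were recovered. limma 3.58.1 (R 4.3.3) with a mean-variance trend was run on log2(CPM + 0.5) of genes with a mean of at least 1 CPM, with a threshold of adjusted p of 0.05; on recovered reads edgeR 4.0.16 called 5468 genes and DESeq2 1.42.0 called 4910. A fold change on this scale understates the change of low genes. The fit drew on 42.9 prior degrees of freedom beside 4 residual ones, and an exact permutation test of 3 against 3 libraries cannot go below p = 0.1. Library totals set the precision, and Fosb and Egr3 rest on few reads. Gene coordinates are from GENCODE M21, promoter windows from RefSeq.

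The members and gene lists were chosen with earlier results of these data known, and some lists share genes. Named were all members, in each list the strongest called increase and decrease, and the 3 genes most like Fosl1, Fosl2, Fos and Egr1. Ptgs2, Dusp1, Etv4, Jdp2, Rps6ka3, Runx2, Spp1, Col1a2, Nab1, Nab2, Lyz2, Ctsk, Calcr, Dcstamp, Ocstamp, Oscar, Emcn, Tie1, Gm42418 and Plekhh2 were named after their values were seen, or as defining markers. Lists were described by counts and medians, and 1 gene is not reported here.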

Additional observations from a re-analysis of the deposited data

How the results depend on the processing

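Of 21 alternatives to the limma comparison of day 7 with day 0, all kept the calls for Fosl1, Jun and Egr1. With limma, 3971 genes were called, against 8086 with quality weights per library, 6120 with TMM and voomWithQualityWeights, and 2882 to 6330 when 1 library was left out, the highest count being without day 0 replicate 3. Small differences changed sign: with 1 library left out, Fos ranged from -0.20 to 0.16, Fosl2 from -0.0838 to 0.17 and Jund from -0.0392 to 0.19, and Fosl2 was -0.0524 with quality weights. Jund passed with TMM and voomWithQualityWeights (0.22, adjusted p = 0.0368, against up to 0.973 under the other settings). Without Jun and Junb among the rapid-response genes, the Fosl2 difference to them from day 0 to day 7 was 0.22, against 0.03 with both; without Egr2 and Egr3 it was -0.11, and with 1 library left out it ranged from -0.08 to 0.13, below 0 without day 0 replicate 3 or day 7 replicate 2. The same difference for Fosl1 was 0.81 with all 7 rapid-response genes, 1.01 without Jun and Junb and 0.68 without Egr2 and Egr3. The cause of these shifts was not tested.

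With a replicate block limma called 3413 genes, with 3 members higher and 1 lower. Deviations of same-numbered libraries correlated at -0.02, -0.18 and -0.44, so the numbers were not taken as pairs. The scaling and left-out libraries for the day 4 counts were chosen after the values were seen. Day 4 libraries were deeper, so low genes such as Fosb and Egr3 were measured less precisely at day 0 and day 7.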
